A study of Mus musculus with 13 samples.

Results

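The comparison described here is culture time without cooling. Fibroblasts of mouse embryos, a primary culture of connective tissue cells obtained from Millipore, were kept at 37°C (normothermia) in high-glucose DMEM with 10% FBS. Their RNA was measured on 7 of the 13 arrays of the hypothermia experiment: 1 at 0 h, 1 each at 0.5, 1 and 2 h (the early arrays) and 1 each at 4, 8 and 18 h (the late arrays). These members were chosen by their labels for temperature and time. The 6 arrays at 32°C, taken at the same times after the incubator temperature was lowered, serve only for comparison, and the cells of every group carried no other treatment named in the labels. Each array holds the pooled RNA of 3 dishes. The time points of a group therefore stand in for replicates, and p-values measure the spread between time points as well as any spread between arrays.

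A cell that receives a growth signal, fresh serum or a mechanical disturbance switches on immediate early genes within minutes, without new protein synthesis. They encode mainly transcription factors such as FOS and EGR1, together with phosphatases and RNA-binding proteins that end the signal again. Slower waves follow, among them inhibitor of differentiation (ID) genes, which answer bone morphogenetic proteins (BMPs) through SMAD factors. The sources used here do not say what was done to the dishes between 0 and 0.5 h.

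Of 15 fibroblast markers, 15 were measured, and their mean log2 intensities over the 37°C arrays lay between 9.45 and 13.78, with Vim at 13.78 and Col1a1 at 12.26. Among defining markers of other cell types, Ptprc of white blood cells lay at 5.40, Pecam1 of endothelium at 5.94 and Epcam of epithelium at 5.55. Other members of these lists were brighter. The brightest lay at 7.57 for macrophages, 9.71 for endothelium and 8.88 for epithelium. Over all lists of other cell types, the brightest member ranged from 7.04 (erythroid cells) to 11.12 (skeletal muscle). Levels of different genes are not comparable on an array, so these values describe signal alone. The summed intensity of the fibroblast markers was 77440 at 0 h and 76890 at 18 h, and that of the 15 macrophage markers 1003 and 1030. No gene of the 9 marker lists was 2-fold away from 0 h at any time at 37°C. In such bulk RNA, fewer cells with a transcript and less of it per cell cannot be told apart.

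At 37°C, 44 of 19938 genes rose at least 2-fold above 0 h within the first 2 h and lay within 0.5 on the log2 scale of the 0 h level at 18 h (0.221% of genes tested). They came in a sequence, with 13 highest at 0.5 h, 13 at 1 h and 18 at 2 h. A single further gene, Mir495, rose 2-fold and was still 0.95 above 0 h at 18 h. With 1 array per time point these are descriptions of fold size, and no test stands behind a single gene. Counted time by time, 16 genes were at least 2-fold above 0 h at 0.5 h, 21 at 1 h and 22 at 2 h. Only 1 gene was so at each of 4, 8 and 18 h, namely Atoh8, Mir380 and Cxcl15 in that order. The signal of 34 of the 44 genes was above the median of all genes, and that of 10 below it.

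The rule has a threshold of 1 on the log2 scale. The members closest inside it were Mir496a at 1.00, Ch25h at 1.02 and Gadd45b at 1.03. Just outside lay the phosphatase gene Dusp4 at 0.98, Sema7a at 0.97 and Ankrd1 at 0.95. At a 1.5-fold threshold 162 genes rose and returned. Without the 2 h array 29 did so at 2-fold. These lie among the 44 by construction, since the same rule then searches fewer arrays.

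**Figure D1:**
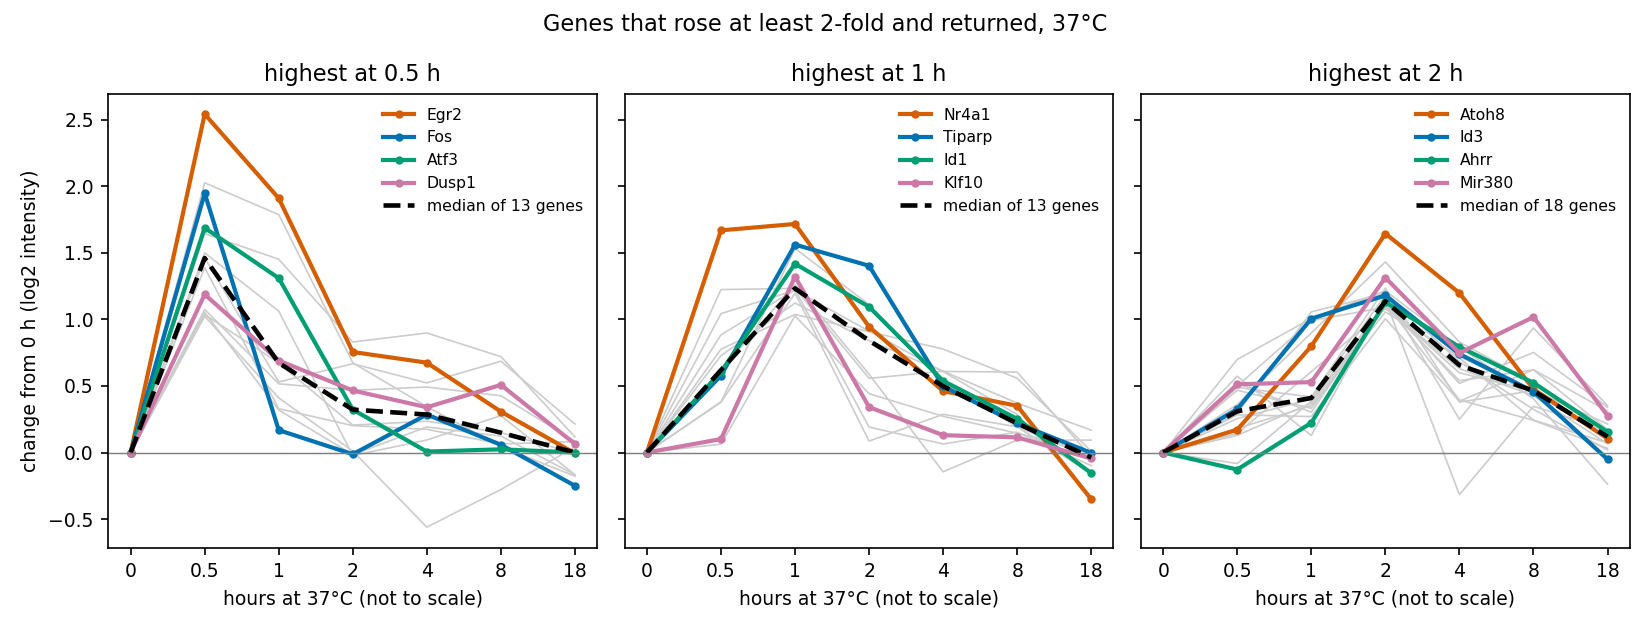
Change from the 0 h array on the log2 scale (vertical axis) against time at 37°C (horizontal axis, not to scale) for the 44 genes that rose and returned, 1 grey line per gene and 1 array per point. The panels group 13, 13 and 18 genes by the time of their highest early value, coloured lines mark named genes, and the dashed line is the panel's median.

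The first wave was led by transcription factor genes. Egr2, a zinc finger factor, had a log2 intensity of 8.35 at 0 h, 10.89 at 0.5 h, 10.26 at 1 h, 9.10 at 2 h, 9.02 at 4 h, 8.66 at 8 h and 8.34 at 18 h. Its peak was 5.82-fold above 0 h, the largest of the 44, and every early array lay above every late array. Fos, a subunit of the AP-1 factor, ran through 7.59, 9.54, 7.76, 7.58, 7.88, 7.65 and 7.34 at the same 7 times. It was thus 3.86-fold up at 0.5 h and 0.17 above 0 h at 1 h, so that a single array carried its pulse. Its sister gene Fosb was higher by 2.03 at 0.5 h and still by 1.79 at 1 h. Atf3, a stress-induced factor of the same bZIP class, was higher by 1.69 and 1.31 at these times and by 0.32 at 2 h.

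Also highest at 0.5 h were Arc, higher by 1.64, which encodes a cytoskeleton-associated protein, and Edn1 (2.83-fold), the precursor of the vessel-constricting peptide endothelin-1. Next came, as log2 changes, Ier2 (1.39), Dusp1 (1.19), a phosphatase that switches off MAP kinases, and Egr1 (1.05), with Eid3 (1.04) and Ch25h (1.02), which encodes cholesterol 25-hydroxylase. Mir145a (1.46) and Mir143 (1.08), neighbouring miRNA genes of chromosome 18, complete the 13. Of all 13 members of the list of AP-1 and EGR factors, 6 were at least 2-fold up at 0.5 h (0.0802% of genes tested), 4 at 1 h and 0 at 2 h, and their median change was 0.49, 0.38 and 0.32. The members under the threshold at 0.5 h included Jun at 0.46 and Junb at 0.49, so the FOS partners of AP-1 were higher by less than Fos and Fosb.

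No gene of the list of mRNA decay factors and NF-kappaB inhibitors was 2-fold up at 0.5 h. Zfp36, which binds AU-rich mRNAs and marks them for decay, was higher by 0.94 at 0.5 h and 0.04 at 1 h, a course carried by 1 array like that of Fos. Btg2 was higher by 0.93 and Ppp1r15a, a regulatory subunit that restores translation after stress, by 0.90. The NF-kappaB inhibitors Nfkbia and Tnfaip3 were highest at 1 h, by 0.80 and 0.82. Of the list's 16 genes only Gadd45b passed 2-fold and entered the 44, with 1.03 at 1 h against 0.06 at 0.5 h.

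The second wave, highest at 1 h, held nuclear receptor, ID and growth factor genes. Nr4a1, an orphan nuclear receptor, had log2 intensities of 10.35, 12.02, 12.07, 11.29, 10.81, 10.70 and 10.00 from 0 to 18 h. It was 3.29-fold up at 1 h, and its lowest array of all was the last. Klf10, induced by TGF-beta, ran through 8.92, 9.02, 10.24, 9.26, 9.05, 9.03 and 8.88, so that a single array carried its 2.50-fold rise. Hes1, a Notch target and repressor with an oscillating transcript, had the same shape, with changes of 0.38, 1.20 and 0.09 at 0.5, 1 and 2 h. Csrnp1 reached 1.22 and Egr3 1.23, and the neuronal factor gene Npas4 1.04.

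Ligands of the EGF and IL-6 families were part of this wave. Ereg, encoding epiregulin, was higher by 1.04, 1.22 and 0.91 at 0.5, 1 and 2 h and lower by 0.33 at 18 h. Hbegf, the heparin-binding EGF, was higher by 0.73, 1.12 and 0.84, and was still 0.60 up at 8 h. Lif, a cytokine that signals through the IL-6 receptor subunit gp130, was higher by 0.62, 1.26 and 0.59, and its late arrays lay between -0.14 and 0.09. Of the 31 measured genes for secreted growth factors, cytokines and matrix signals, 4 were 2-fold up at 1 h (0.105% of genes tested), these 3 and Edn1. In the same list Ccl2, Ccl7 and Cxcl5, which encode chemokines, were lower by 0.62, 0.70 and 0.73 at 4 h, without reaching 2-fold.

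The third wave, highest at 2 h, held targets of BMP signalling, miRNA genes of 1 locus and other genes such as Nr4a3, Ahrr, Slco4a1 and Cxcr4. Id1, counted in the second wave, is given here beside the other ID genes. It had log2 intensities of 10.18, 10.79, 11.60, 11.28, 10.72, 10.44 and 10.03 from 0 to 18 h, a 2.67-fold rise at 1 h. ID proteins bind basic helix-loop-helix factors and keep them from DNA. Id2, Id3 and Id4 were highest at 2 h, by 1.20, 1.18 and 1.43, and were 1.06, 1.01 and 0.90 up at 1 h. Atoh8, a helix-loop-helix factor gene, ran through 9.16, 9.33, 9.96, 10.80, 10.36, 9.63 and 9.26. It was thus 3.13-fold up at 2 h and the only gene of all tested at least 2-fold up at 4 h, by 1.20 (0.00502% of genes tested).

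Genes for SMADs that limit or carry BMP signals moved in the same hours. Smad6, an inhibitor, was higher by 0.39 at 1 h and 1.12 at 2 h, Smad9 by 0.35 and 1.06, and Smad7 by 0.93 and 0.64. Dlx2, a homeobox gene counted in the second wave, was higher by 1.53 at 1 h and 1.11 at 2 h. In a list of 17 BMP targets of the SMAD1/5 branch, drawn up after values had been seen, 4 genes were 2-fold up at 1 h and 8 at 2 h (0.11% of genes tested at 2 h). The list's median change was 0.17, 0.44, 0.79, 0.35, 0.24 and 0.03 at the 6 times. In the broader list of BMP and TGF-beta early targets, with 19 measured genes, 3 were 2-fold up at 1 h and 5 at 2 h, and the median change was lower, at 0.08, 0.18, 0.22, 0.23, 0.18 and 0.02. Among the members of the first list under the threshold were Gata2 at 0.79 and Msx2 at 0.78 at 2 h.

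Targets of the aryl hydrocarbon receptor, a sensor of dioxin-like and tryptophan-derived ligands, formed a smaller group. Tiparp, an ADP-ribosyltransferase that restrains the receptor, had log2 intensities of 9.33, 9.91, 10.89, 10.73, 9.83, 9.55 and 9.32 and was 2.95-fold up at 1 h. Ahrr, the receptor's repressor, followed it with changes of -0.13, 0.22, 1.13, 0.79, 0.52 and 0.15. Cyp1b1, another target, was higher by 0.61 at 2 h and Cyp1a1, from a dim 5.4 at 0 h, by 0.44. The receptor gene Ahr was itself lower by 0.32 at 1 h and 0.42 at 2 h. Of these 8 genes, a list also drawn up after values had been seen, 2 were 2-fold up at 2 h, against 0.11% of genes tested.

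The position and length of the 44 genes were not used by the rule. The 34 protein-coding members spanned a median of 6.97 kb, against 19.2 kb over 18565 protein-coding genes tested. Among them the 11 highest at 0.5 h spanned a median of 3.49 kb (1.3 to 13 kb), the 13 highest at 1 h 10.9 kb (1.16 to 27.1 kb) and the 10 highest at 2 h 24.1 kb (1.57 to 81.2 kb). Ahrr was the longest at 81.2 kb and Id1 the shortest at 1.16 kb. The spans come from RefSeq on GRCm38.p6, and the order of the medians is a description of few genes with overlapping ranges.

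RefSeq promoter windows, each 250 bases before to 50 bases after a start of transcription on GRCm38.p6, were matched for 24 of the 44 genes. Among the 20 without a window were Egr1, Egr3, Ier2, Arc, Id1 and Klf10, so the counts cover only part of each wave. A gene with several windows counted when any of them held the motif. For 9 motifs, chosen with these results known, the windows were searched on both strands. The half-site of the cyclic AMP response element, TGACG, occurred in 23% of all genes with a window. It occurred in 6 of 7 genes highest at 0.5 h (Atf3, Ch25h, Dusp1, Egr2, Fos and Fosb), in 4 of 7 highest at 1 h and in 4 of 10 highest at 2 h. The full element TGACGTCA, which contains the half-site, occurred in 2.03% of all genes, and here in Ch25h and Dusp1. The core GCGTG of the element bound by the aryl hydrocarbon receptor occurred in 35.2% of all genes, and here in 4 of 7, 7 of 7 and 8 of 10, Tiparp and Ahrr among them. The longer form TTGCGTG, which contains the core, occurred in 1.35% of all genes and here in Ch25h alone. Among the genes with a window, a CArG box, the serum response factor motif, was found in Egr2 alone, against 1.81% of all genes. The AP-1 motif TGACTCA (5.95% of all genes) was found in Csrnp1 and Lif. The letters GGCGCC, present in 13.4% of all genes, were in 3 of 7, 3 of 7 and 3 of 10 windows and in both windows of genes that fell and returned, Bcl3 and Socs3. The STAT motif TTCCNNGAA (5.6% of all genes) was in Csrnp1 and in neither of those 2 windows, and the E box CACGTG (8.09% of all genes) in 2 of 7, 2 of 7 and 1 of 10. Such a match is a run of letters and shows no binding. Sites outside the windows were not searched, so a missing match does not mean that a gene lacks the motif.

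The windows below show 3 genes of the first hour and both aryl hydrocarbon receptor targets that passed 2-fold. Each is printed 5′ to 3′ in the gene's direction, with its strand in brackets. Capitals mark TGACG or its reverse complement in the first 3, and GCGTG or its reverse complement in the last 2.
Fos chr12:85473640-85473939 (+): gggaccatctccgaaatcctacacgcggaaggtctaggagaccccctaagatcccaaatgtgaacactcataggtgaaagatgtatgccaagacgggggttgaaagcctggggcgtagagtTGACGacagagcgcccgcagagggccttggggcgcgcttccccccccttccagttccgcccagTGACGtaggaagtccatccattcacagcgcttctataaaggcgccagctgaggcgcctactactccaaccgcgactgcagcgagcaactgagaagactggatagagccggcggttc
Nr4a1 chr15:101266596-101266895 (+): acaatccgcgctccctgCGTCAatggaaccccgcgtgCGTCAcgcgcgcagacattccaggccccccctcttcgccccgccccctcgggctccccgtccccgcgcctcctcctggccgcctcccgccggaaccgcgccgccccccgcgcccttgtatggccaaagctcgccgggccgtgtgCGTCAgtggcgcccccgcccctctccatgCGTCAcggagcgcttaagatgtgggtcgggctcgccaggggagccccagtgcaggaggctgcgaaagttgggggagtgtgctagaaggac
Dusp1 chr17:26508423-26508722 (-): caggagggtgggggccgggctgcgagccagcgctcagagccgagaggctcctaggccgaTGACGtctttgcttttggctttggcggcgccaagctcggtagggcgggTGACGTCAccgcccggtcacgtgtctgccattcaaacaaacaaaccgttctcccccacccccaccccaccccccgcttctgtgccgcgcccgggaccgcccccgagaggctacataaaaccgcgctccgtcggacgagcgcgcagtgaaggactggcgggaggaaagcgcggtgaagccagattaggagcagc
Tiparp chr3:65528197-65528496 (+): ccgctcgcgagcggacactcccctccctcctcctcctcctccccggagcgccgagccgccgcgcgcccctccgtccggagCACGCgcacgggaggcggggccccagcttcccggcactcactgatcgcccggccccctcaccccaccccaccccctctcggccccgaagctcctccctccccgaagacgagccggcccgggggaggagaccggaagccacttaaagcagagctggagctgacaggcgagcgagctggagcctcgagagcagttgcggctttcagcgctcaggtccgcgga
Ahrr chr13:74292282-74292581 (-): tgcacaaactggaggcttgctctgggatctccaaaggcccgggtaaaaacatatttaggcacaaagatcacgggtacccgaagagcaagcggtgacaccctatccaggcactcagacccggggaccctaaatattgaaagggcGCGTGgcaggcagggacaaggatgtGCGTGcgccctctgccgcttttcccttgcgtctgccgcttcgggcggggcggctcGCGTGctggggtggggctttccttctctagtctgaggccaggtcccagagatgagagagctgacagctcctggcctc
The Fos window held 2 half-sites, that of Nr4a1 4 and that of Dusp1 3, 2 of which overlap as the arms of a full element. The Tiparp window held 1 GCGTG core and the Ahrr window 3.

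A run of miRNA genes on chromosome 12 stood higher as a whole at 2 h. The stretch from Mir379 to Mir410, chr12:109709060-109743795 on the + strand of GRCm38.p6, spans 34.7 kb and holds 38 miRNA genes, of which 30 were measured. It belongs to the imprinted Dlk1-Dio3 domain, whose maternal copy makes long noncoding RNAs. All 30 lay above 0 h at 2 h, by 0.02 to 1.31 with a median of 0.84, and 9 were at least 2-fold up. The other 267 measured miRNA genes were all those outside the stretch, with no regard to this domain. Of them 71.9% lay above 0 h at 2 h, their median was 0.08 and 0 were 2-fold up. The stretch was drawn up after values had been seen. Its 9 genes past 2-fold had already been picked by their early rise, so 9 against 0 is no separate support. Of all genes tested, 46.5% lay above 0 h at that time. For 28 of the 30 the array at 2 h was the highest of the 6 times.

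The locus was dim, with mean log2 intensities from 3.36 to 9.36, and 10 of the 30 genes were above the median signal of all genes. Mir380, at 5.70 at 0 h, ran through 6.21, 6.23, 7.01, 6.45, 6.72 and 5.98, so that it was 2.49-fold up at 2 h and had a second, lower maximum at 8 h. The locus median was likewise 0.24, 0.29, 0.84, 0.35, 0.46 and 0.20. The long noncoding RNAs Meg3 and Rian of the same domain were higher by 0.32 and 0.64 at 2 h. The labelled RNA was copied from total RNA, and signal from a long host transcript and from the short hairpin cannot be told apart here. The rise rests on a single array, and at 32°C the locus median at 2 h was 0.42, with 27 of 30 genes higher at 37°C than at 32°C.

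The mature sequences encoded by the 9 genes that were 2-fold up, as far as RefSeq's table for GRCm38.p6 lists them, are printed 5′ to 3′ in the order of the genes along the locus. Capitals mark the seed, bases 2 to 8, which pairs with target mRNAs. They are shown because genes that stood higher together here differ in this part.
mmu-miR-379-5p: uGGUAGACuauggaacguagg
mmu-miR-379-3p: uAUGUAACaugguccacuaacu
mmu-miR-411-5p: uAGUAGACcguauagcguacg
mmu-miR-411-3p: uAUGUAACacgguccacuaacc
mmu-miR-380-5p: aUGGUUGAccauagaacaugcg
mmu-miR-380-3p: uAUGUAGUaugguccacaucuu
mmu-miR-329-5p: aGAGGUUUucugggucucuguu
mmu-miR-329-3p: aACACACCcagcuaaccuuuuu
mmu-miR-543-5p: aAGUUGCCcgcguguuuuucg
mmu-miR-543-3p: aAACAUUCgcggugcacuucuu
mmu-miR-495-5p: gAAGUUGCccauguuauuuuucg
mmu-miR-495-3p: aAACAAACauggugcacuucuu
mmu-miR-376c-5p: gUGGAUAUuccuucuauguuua
mmu-miR-496a-5p: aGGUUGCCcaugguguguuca
mmu-miR-496a-3p: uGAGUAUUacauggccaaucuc
mmu-miR-369-5p: aGAUCGACcguguuauauucgc
mmu-miR-369-3p: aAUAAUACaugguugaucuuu
These 17 sequences carry 16 different seeds. Only the 3′ arms of the first pair of genes, miR-379-3p and miR-411-3p, share theirs.

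**Figure D2:**
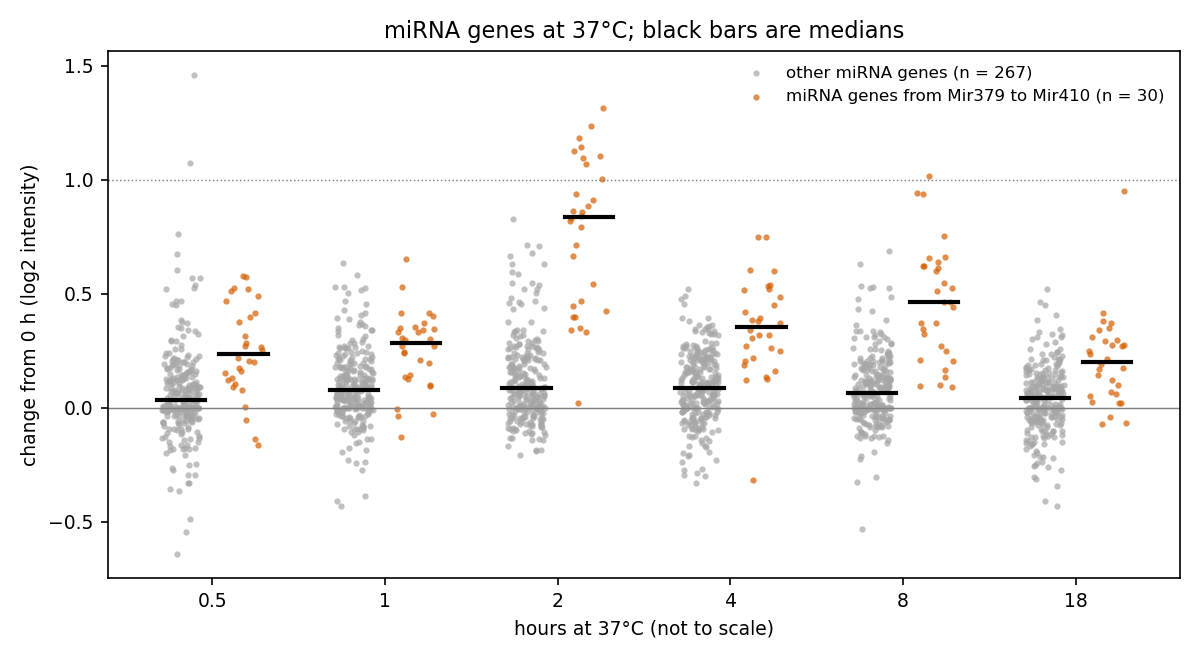
Change from 0 h on the log2 scale for 30 miRNA genes from Mir379 to Mir410 (orange) and 267 other miRNA genes (grey) at 6 times at 37°C, 1 point per gene and 1 array per time. Black bars are medians. At 2 h the orange points have a median of 0.84 and the grey points of 0.08, and the dotted line marks 2-fold.

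Falls in the early hours were few. Over 0.5 to 2 h, 4 genes fell at least 2-fold, and 3 of them, Bcl3, Socs3 and Cebpd, lay within 0.5 of 0 h at 18 h (0.015% of genes tested). Bcl3, a nuclear IkappaB protein, had log2 intensities of 10.13, 9.71, 8.92, 8.53, 8.86, 9.24 and 9.81 from 0 to 18 h, and its trough at 2 h was 0.331 of the level at 0 h. Socs3, an inhibitor of cytokine signalling, ran through 9.73, 9.07, 8.54, 8.75, 9.02, 9.03 and 9.38. A second, dimmer transcript cluster named Socs3 had a highest early change of 0.008, against -0.66 for the first. Its lowest early change is not given here, and which one measures the gene was not determined. Cebpd, a factor induced by IL-6, was lower by 0.83 at 1 h and 1.00 at 2 h. All 3 recovered only in part, with 0.32, 0.35 and 0.47 left at 18 h, and none counts as returned within 0.25.

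The fourth was Il6, a cytokine gene. It ran through 7.45, 7.53, 6.73, 6.32, 6.54, 6.54 and 6.14 and was lowest at 18 h, 1.31 below 0 h. At 0.5 h Il6 was 0.075 above 0 h, when Socs3 was already 0.66 below. At 32°C Il6 was higher by 0.40 at 1 h and 0.835 at 2 h. There Bcl3 was 1.45 and Socs3 1.29 below 0 h at 2 h. A link between these courses was not tested. Not all genes of the list of IL-6 family signalling and STAT3 targets moved down. Pim1, a kinase gene, was higher by 0.80 and 0.89 at 0.5 and 1 h, Stat3 stayed between -0.18 and 0.07, and the receptor genes Il6st and Osmr were lower by at most 0.31 and 0.30. In this list of 10 genes, drawn up after values had been seen, 3 were 2-fold down at 2 h (0.015% of genes tested) and 1, Lif, was 2-fold up at 1 h.

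The course at 32°C gives a second look at the same genes on other arrays. It shares the 0 h array with the course at 37°C, so it was read against its own array at 18 h. Of the 44 genes, 29 had an early array at 32°C at least 2-fold above that at 18 h (0.642% of genes tested), and 24 of these lie outside the miRNA locus. Of the 3 genes that fell and returned, 0 had an early array at 32°C at least 2-fold below that at 18 h (0.0702% of genes tested). Bcl3, at 1.45 below 0 h at 2 h and 0.84 below at 18 h, returned less far at 32°C than at 37°C. The time of the highest early value was later at 32°C for 20 genes, the same for 18 and earlier for 6. Only 0.5, 1 and 2 h were searched, so the window fixed part of this split. The 18 genes highest at 2 h at 37°C could not count as later. The 13 highest at 0.5 h could not count as earlier. Against 0 h, the median change of the 44 genes at 0.5, 1, 2, 4, 8 and 18 h was 0.59, 0.95, 0.93, 0.51, 0.35 and 0.04 at 37°C. At 32°C it was 0.27, 0.84, 0.86, 0.56, 0.44 and 0.03.

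Single genes differed in the same way. Klf10 at 37°C was higher by 1.32 at 1 h and 0.34 at 2 h, while at 32°C it was higher by 0.74 and 1.40. Tiparp was highest at 1 h at 37°C and at 2 h at 32°C, where it reached 1.70. Fos was higher by 1.95 and 0.17 at 0.5 and 1 h at 37°C and by 1.80 and 1.66 at 32°C. Socs3 at 0.5 h was lower by 0.66 at 37°C and higher by 0.25 at 32°C. It fell later at 32°C, to 0.66 below 0 h at 1 h and 1.29 below at 2 h. At 18 h at 32°C Socs3 was 0.41 below 0 h. The difference between late and early arrays was compared between the temperatures in 1 limma fit over the 12 arrays from 0.5 to 18 h. No gene passed an adjusted p of 0.05 (lowest 0.104). At an unadjusted p under 0.05 in this fit, 1506 were higher (7.55%) and 713 lower (3.58%) at 37°C. Chance alone would give 996.9 in both directions together. None of the 44 was among the genes under 0.05.

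**Figure D3:**
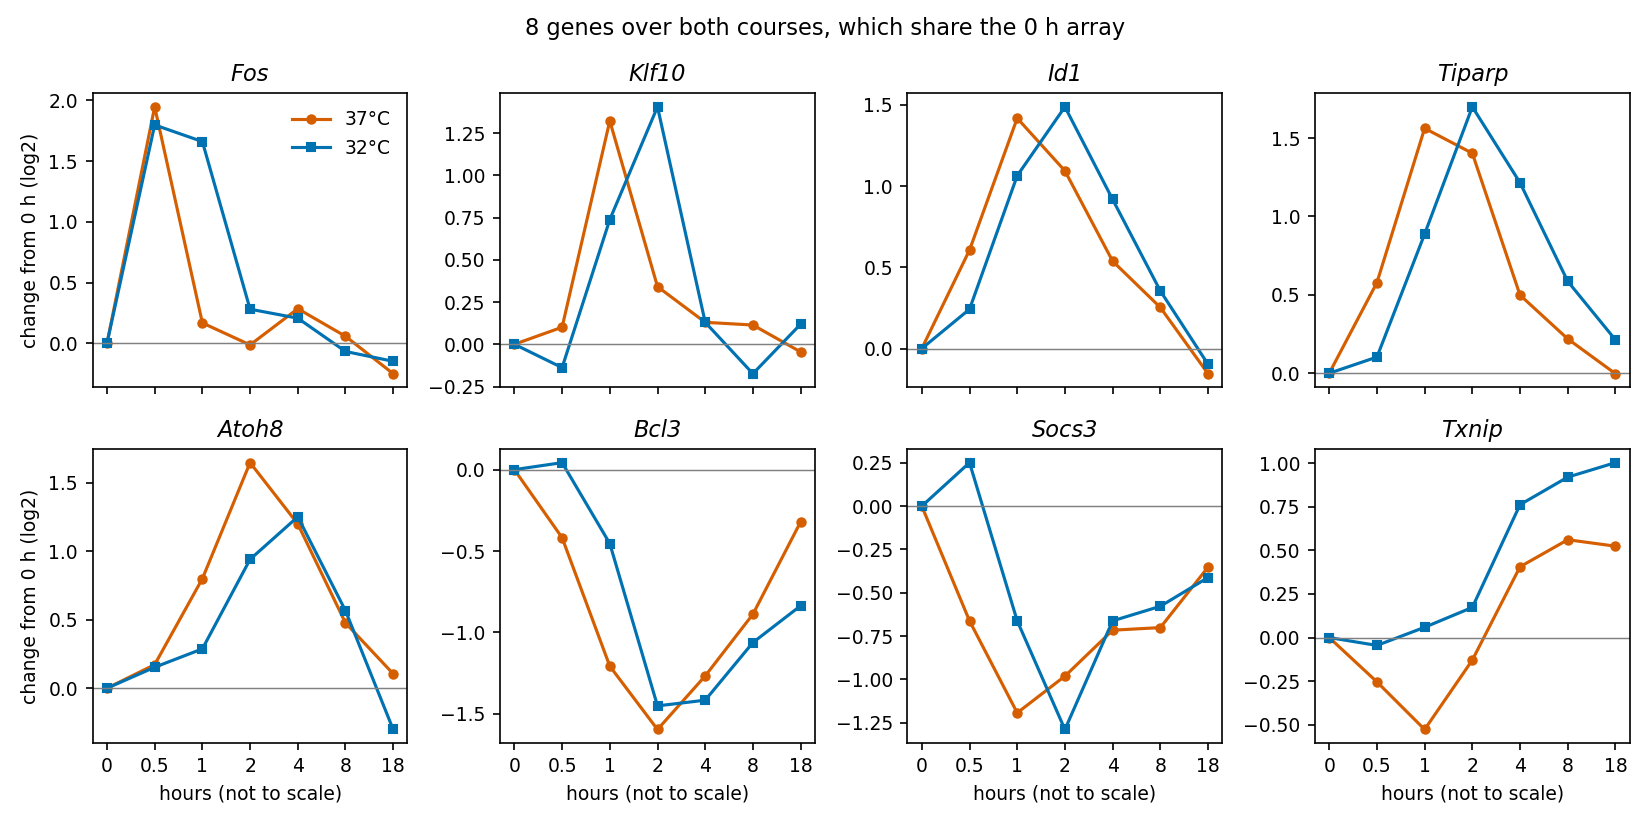
Change from 0 h on the log2 scale against time (not to scale) for 8 genes at 37°C (orange circles) and 32°C (blue squares), 1 array per point, with the 0 h array shared. Fos, Klf10, Id1 and Tiparp stayed high longer or were highest later at 32°C, and the troughs of Bcl3 were 1.60 and 1.45 below 0 h.

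The main comparison, late arrays against early arrays at 37°C, asks which genes differ between the first 2 h and the hours after. No gene passed an adjusted p of 0.05 in limma's fit (lowest 0.143). At an unadjusted p under 0.05, 1001 genes were higher late (5.02%) and 600 lower (3.01%), against 996.9 that chance alone would give in both directions together. Late arrays lay entirely above early arrays in 8.64% of genes and entirely below in 4.25%. Short pulses such as those above widen the spread of the early arrays, as for Fos with an SD of 1.08 over 3 early arrays and 0.269 over 3 late ones. Of the 44 genes, 11 lay entirely lower on the late arrays, a count from the arrays that chose them.

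The lowest p belonged to Srsf5, a splicing factor gene. It had log2 intensities of 10.12, 10.23 and 10.23 on the early arrays and 9.60, 9.67 and 9.62 on the late ones, with 9.81 at 0 h between both. The difference was -0.57 (SE 0.049), larger than the spread within each group, with limma's adjusted p at 0.143. With variances modelled on intensity and fitted robustly it passed, at 0.028. A second transcript cluster named Srsf5 gave -0.54, and which of them measures the gene was not determined.

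Txnip showed the largest change among the named genes that were higher late. Its product binds thioredoxin and restrains glucose uptake, and its transcript follows glucose. Its log2 intensities were 10.06, 9.79 and 10.19 on the early arrays and 10.72, 10.88 and 10.84 on the late ones, around 10.32 at 0 h. The difference was 0.80 (SE 0.10), 1.74-fold, with an adjusted p of 0.495, and 0.042 when all 13 arrays entered the fit. Arrdc4, a related arrestin-fold gene with the same glucose-sensing activator, was lower by 0.21, 0.38 and 0.25 on the early arrays and ended at 0.16 and 0.15 at 8 and 18 h. No gene of that list of 13 was 1.5-fold away from 0 h at any time. Both genes were higher late at 32°C too, by 0.83 and 0.84.

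The other genes named as higher late had mixed roles. Smoc2, a matrix protein, was 0.38, 0.47 and 0.41 above 0 h on the late arrays and at most 0.16 on the early ones. Gldn, encoding the olfactomedin protein gliomedin, was 0.70 to 0.90 above 0 h late against at most 0.43 early, and Rab3b, a GTPase of secretory vesicles, 0.50 to 0.77 against 0.19. The zinc finger genes Zfp354c, Zfp213 and Zfp40 had another shape, being 0.23 to 0.44 below 0 h on the early arrays and near 0 h on the late ones. Klhl42 and Pcp4l1 complete the 10 named, all with an adjusted p of 0.495 in limma's fit and no overlap between the groups. The choice of these genes by the lowest p favours such a separation.

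The genes named as lower late beside Srsf5 had mixed roles too. Pdk1, a kinase that closes pyruvate dehydrogenase, stayed within 0.05 of 0 h early and was lower by 0.34, 0.68 and 0.48 late. Slc2a1, the glucose transporter, was 0.09 to 0.18 above 0 h early and 0.10 to 0.27 below it late. Hmox1, the heme oxygenase of the NRF2 response, was 0.21 to 0.31 above and then 0.06 to 0.25 below. Plk2 and Ier3, both induced by growth signals, were 0.61 and 0.65 above 0 h at 0.5 h and between 0.03 above and 0.33 below it on the late arrays. Mmp10, Thbd, Ppbp and Tnfaip6 were the others, again with an adjusted p of 0.495.

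**Figure D4:**
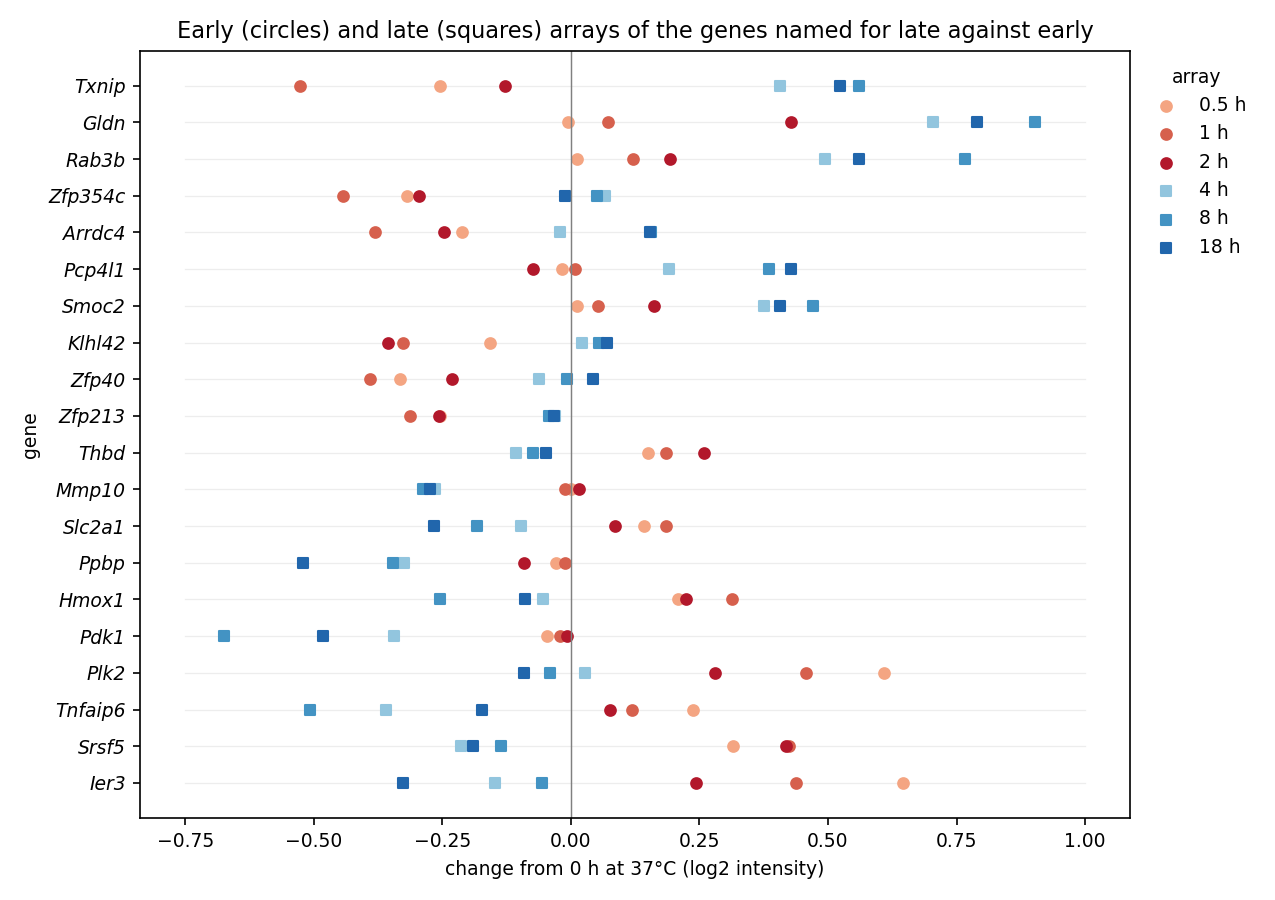
Change from 0 h on the log2 scale (horizontal axis) for the 20 genes named for late against early, 1 row per gene and 1 point per array. Circles are arrays at 0.5, 1 and 2 h and squares those at 4, 8 and 18 h. In each row all squares lie to 1 side of all circles. The genes were chosen by the lowest p in this comparison, which favours such a separation. Over all genes tested it occurred in 8.64% in the higher and 4.25% in the lower direction.

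Among the gene lists, 11 of 29 measured hypoxia and glycolysis genes and 7 of 23 cholesterol genes lay entirely lower on the late arrays, against 4.25% of all genes. These lists do not stand alone. The same held for 12 of 31 secreted growth factor and cytokine genes and 9 of 25 NR4A, KLF and MYC genes. It also held for 5 of 13 AP-1 and EGR genes and 5 of 13 fatty acid genes. Bnip3, a mitochondrial autophagy gene and target of HIF-1, was the largest of the hypoxia and glycolysis list, lower by 0.64, 1.13 and 0.59 at 4, 8 and 18 h. Ak4 was lower by 0.95 and Slc16a3, which exports lactate, by 0.84 at 8 h. The list's median was -0.18 at 8 h and -0.16 at 18 h. Insig1, the sterol sensor, led the cholesterol genes with 0.46 above 0 h at 0.5 h and 0.26 below at 4 h. Their median was -0.24 at 4 h, with 22 of 23 under 0 h, and -0.03 at 18 h.

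In the other direction, 9 of 25 actin and contractile genes, 9 of 25 lysosome genes and 8 of 23 matrix glycoprotein genes lay entirely higher late, against 8.64% of all genes. Their median differences were small, at 0.04, 0.04 and 0.03, where the median of all genes was 0.01. The median of all genes was 0.0037 after quantile normalization and -0.013 with median-centred arrays, so its sign depends on the scaling. No member passed the adjusted test in any list, since no gene did.

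Cell cycle genes lay lowest at 4 or 8 h. All 34 measured DNA replication genes lay below 0 h at 8 h, and 15 did at 18 h, with a median of -0.27 at 4 and 8 h and 0.00 at 18 h. Mcm10, which loads polymerase at origins, was 0.53 below 0 h at 8 h and Pola1, of the primase complex, 0.49. All 31 mitosis genes lay below 0 h at every time from 0.5 to 8 h, and 30 still did at 18 h. Their median was -0.14, -0.15, -0.18, -0.18, -0.37 and -0.11 at the 6 times, with, at 8 h, Aurkb at -0.54 and Mki67 at -0.51 among them. None reached 1.5-fold at any time. Of all genes tested, 56.1%, 53.4% and 49.9% lay above 0 h at 4, 8 and 18 h. At 32°C the medians were -0.23 and -0.23 at 8 h, and -0.55 and -0.77 at 18 h.

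**Figure D5:**
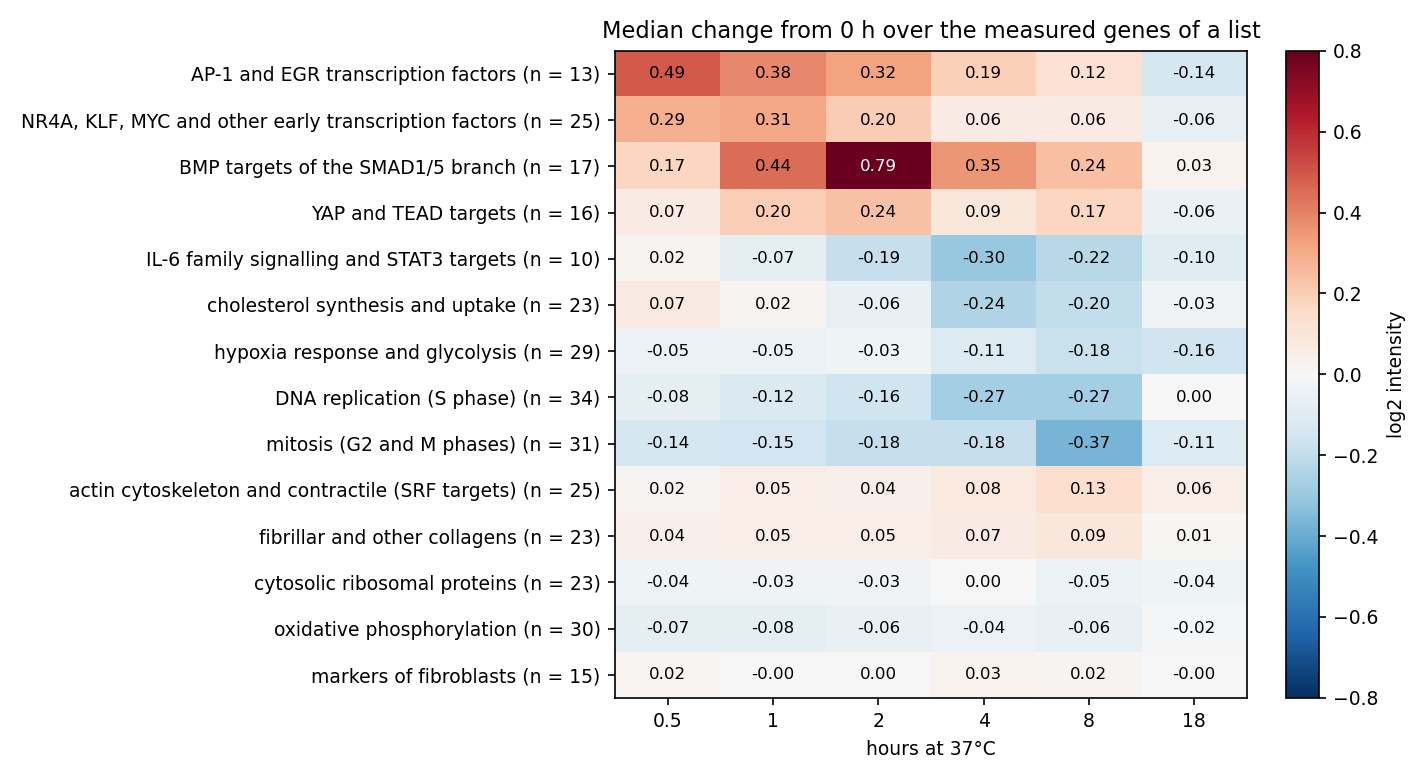
Median change from 0 h on the log2 scale over the measured genes of 14 lists (rows, with their number of genes) at 6 times at 37°C (columns), 1 array per time. The lists above that of IL-6 and STAT3 genes are raised in the first 2 h. The IL-6 and STAT3, cell cycle, hypoxia and cholesterol lists are lowest at 4 or 8 h. Ribosomal, respiratory and fibroblast marker genes stay within 0.10 of 0.

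Later falls of 2-fold were rare as well, with 2 genes at 4 h (0.01% of genes tested), 4 at 8 h (0.0201%) and 1 at 18 h (0.00502%). Adamts5, a protease that cuts aggrecan, had log2 intensities of 11.11, 11.09, 10.99, 10.70, 9.98, 10.44 and 10.67 and was lowest at 4 h. Bcl3, past its trough at 2 h, was the other gene 2-fold down at 4 h. At 8 h these were Bnip3, the tight junction gene Cldn1 (-1.06), the protease inhibitor gene Serpinb1a (-1.16) and the adhesion gene Chl1 (-1.46). Cldn1 and Serpinb1a were back at -0.05 and -0.16 at 18 h, while Chl1 was at -0.73. The circadian output gene Dbp, 0.79 below 0 h at 4 h and 0.10 above at 18 h, followed a similar course below the 2-fold mark.

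Against 0 h as a group, neither the early arrays (lowest adjusted p 0.924) nor the late arrays (lowest 0.822) held a gene past the threshold in limma's fit. At an unadjusted p under 0.05, 618 genes were higher (3.1%) and 448 lower (2.25%) early, and 726 higher (3.64%) and 393 lower (1.97%) late. In each of these comparisons chance alone would give 996.9 genes in both directions together. Both comparisons rest on the single 0 h array, whose spread was taken to be that of the others. At 18 h, 24 genes were at least 1.5-fold above 0 h (0.12%) and 20 at least 1.5-fold below (0.1%), against 111 (0.557%) and 25 (0.125%) at 2 h.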

How the data were processed

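The 7 normothermia arrays, with the 6 hypothermia arrays for comparison, are Affymetrix mouse gene arrays of total RNA pooled from 3 dishes. The authors deposited linear intensity values, 1 per transcript cluster and array, between 4.24 and 18146.4, and the sources used here do not say how probes were summarized and normalized. The array medians differed by 0.046 on the log2 scale, so the log2 of each value was taken with no further scaling. The number of arrays limits the precision. Of 28853 transcript clusters, 21789 carried 1 gene symbol in GEO's platform annotation, and the brightest cluster stood for each of 999 genes with several, leaving 19938 genes. Symbols were updated through RefSeq.

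Groups were compared by lmFit and eBayes of limma 3.58.1, run in R 4.3.3, 2-sided, with Benjamini-Hochberg adjustment over all genes. The fit was tested on simulated data. A gene rose and returned when its highest change over 0.5 to 2 h was at least 1 on the log2 scale and its change at 18 h within 0.5. Named genes were the 10 per direction with the lowest p in late against early among genes above the median signal, the 10 largest transient changes in each direction, and leading members of 32 pathway and 9 marker lists and of 3 lists added later. The stretch of miRNA genes and the other miRNA genes set beside it were added later as well. The members and lists were chosen with earlier results of these data known. Alternatives were quantile normalization, median centring, relative ranks, all transcript clusters, genes above the median signal, a robust intensity trend, all 13 arrays, time point as a block, other thresholds and leaving out each array. Figures were drawn with matplotlib 3.10.9.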

Additional observations from a re-analysis of the deposited data

Results flagged for a closer look

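Among 7064 transcript clusters without a single gene symbol, which no comparison above used, 3 rose at least 2-fold at 0.5, 1 or 2 h at 37°C and returned, and 0 fell and returned. The largest of these rises was 1.10 on the log2 scale. Their genes are unnamed here.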

How the results depend on the processing

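For late against early at 37°C, 0 genes passed as reported, and 1 passed with a robust intensity trend (Srsf5, adjusted p 0.028) and 1 with all 13 arrays (Txnip, 0.042). Leaving out single arrays gave between 0 and 1, the 1 being Pim1 without the 2 h array (0.041). For the difference between the temperatures, 3 genes passed among genes above the median signal, and leaving out single arrays gave between 0 and 105. The 105 came without the 2 h array at 32°C, with 35 without the 4 h and 1 without the 18 h array at 32°C, so that 0 rests on these arrays. At a 1.5-fold threshold 162 genes rose and returned and 43 fell and returned, and 231 lay above and 114 below 0 h at some time instead of 46 and 9. Leaving out single early arrays gave between 29 and 37 genes that rose and returned, 29 without the 2 h array. Of falls, 0 returned within 0.25 and 1 when the mean of 4, 8 and 18 h was used. Leaving out single arrays gave between 2 and 3 genes that fell and returned. The late minus early difference ranged from -0.63 to 0.11 for Atoh8 over arrays left out, being positive without the 2 h array. For Bcl3 it ranged from -0.013 without the 2 h array to 0.58, and was -0.0038 without the 18 h array. The median of late minus early differences moved from -0.046 to -0.14 for DNA replication without the 18 h array, and from -0.076 to 0.095 for the miRNA locus without the 2 h array. The causes were not tested. Single arrays per time, pooled dishes and a single 0 h array set the limits, and which dim genes were above background was not determined.
With time point as a block, which pairs each array at 37°C with the array at 32°C of the same time, the difference between the temperatures again had 0 genes past the threshold (lowest adjusted p 0.097).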
